A study of Homo sapiens with 14 samples.

Results

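NF-κB binding was examined at 8 genes of the AP-1 and ATF family in L1236 cells, a cell line established from Hodgkin lymphoma. The genes were JUNB (ENSG00000171223), JUN (ENSG00000177606), FOS (ENSG00000170345), FOSL1 (ENSG00000175592), FOSL2 (ENSG00000075426), ATF3 (ENSG00000162772), BATF (ENSG00000156127) and BATF3 (ENSG00000123685). Of the 14865 regions in which at least 1 NF-κB subunit was called, 34 (0.229%) had one of these genes as the closest gene or had its transcription start site (TSS) as the closest TSS. The closest gene and the closest TSS both pointed to the family in 22 regions, the gene alone in 5 and the TSS alone in 7. Chromatin immunoprecipitation with sequencing (ChIP-seq) was carried out in 2 libraries each for p50, p52, RelA and RelB, and 6 input DNA libraries without antibody served as background. All libraries came from this single line, for which the labels name no treatment, so that the comparison lies between subunits and not between conditions. The p50 antibody was a goat polyclonal, those for RelA (p65) and RelB were rabbit polyclonals, and the p52 libraries were made with different antibodies, a mouse monoclonal in the first and a rabbit polyclonal in the second. All fold enrichments, pileups and read numbers below come from merged replicates, which leaves 1 value per subunit and region and no replicate error, and no test between subunits was therefore made.

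AP-1 is a family of dimeric transcription factors held together by a leucine zipper, with JUN proteins pairing with FOS, ATF or BATF proteins on TGANTCA or related motifs. Hodgkin cells are known for high AP-1 activity, in particular of JUNB and JUN, and for expression of BATF3. NF-κB factors are dimers as well: p50 and p52 bind DNA but lack the transactivation domain that RelA and RelB carry.

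The sequences before the starts of BATF and JUNB are shown first. The summits with the highest fold enrichment at these genes lie farther than 250 bases from the TSS. BATF is the gene of the family with the most regions, 1 of them over its start, and JUNB is the gene with the highest enrichment. The 250 bases before each start are those of RefSeq on GRCh38.p14, at chr14:75522219-75522468 for BATF and at chr19:12791236-12791485 for JUNB, both on the plus strand. Capitals mark a match to GGGNNNNNCC, a loose form of the κB motif that was searched on both strands, and no capitals appear where there was none.

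BATF upstream: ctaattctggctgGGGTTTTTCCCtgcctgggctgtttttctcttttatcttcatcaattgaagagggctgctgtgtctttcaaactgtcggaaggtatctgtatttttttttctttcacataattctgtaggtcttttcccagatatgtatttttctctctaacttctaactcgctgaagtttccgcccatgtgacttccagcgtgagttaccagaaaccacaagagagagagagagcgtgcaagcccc

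JUNB upstream: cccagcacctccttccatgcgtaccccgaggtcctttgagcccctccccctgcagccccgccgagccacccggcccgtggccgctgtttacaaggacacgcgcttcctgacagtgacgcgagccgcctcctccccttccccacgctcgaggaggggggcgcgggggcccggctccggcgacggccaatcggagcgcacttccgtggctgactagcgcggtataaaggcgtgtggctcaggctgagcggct

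RefSeq windows from 250 bases before to 50 bases after a start were at hand for 6 of the genes, 7 windows in all because ATF3 has 2 starts. GGGNNNNNCC was found in 3 of these windows, those of JUN, FOS and BATF, and in 58.7% of all 35116 windows. The full κB consensus, which overlaps it, was found in none of the 7 and in 11.3% of all. The AP-1 motif TGANTCA occurred in 1 window, that of FOSL2, 5 bases after the start, against 7.71% of all windows, and the ATF motif TGACGTCA in none, against 1.85%. In BATF the letters lie at −237 and −236, which are overlapping matches on opposite strands. The windows follow another genome build than the regions and may use other start sites, so the matches were not placed on the summits. The qPCR primers of the study, printed 5′ to 3′, show which regions were chosen for amplification, and both amplicons lie inside regions described below, 1 at JUNB and 1 at ATF3.

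JUNB forward primer: atctccagggttggatggtt

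JUNB reverse primer: cctgcgcactccaagtct

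ATF3 forward primer: tctcagtttcacccaagtcc

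ATF3 reverse primer: tcgtcagagacagaaagtcc

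Calls in the 34 regions were mostly of p50 and p52, as in the whole set. p50 was called in 30 of them (88.2%, exact Clopper-Pearson 95% interval 72.5 to 96.7), where the background, the share of all 14865 regions called for p50, was 73.8%. For p52 there were 29 calls (85.3%, 68.9 to 95.05) beside a background of 73.3%. RelB was called in 14 (41.2%, 24.6 to 59.3) against 26.8%, and RelA in 3 (8.82%, 1.86 to 23.7) against 3.31%. These intervals cover counting error only and treat neighbouring regions as independent, which they are not, and each of these 4 intervals includes its background. Both p50 and p52 were called in 25 regions (73.5%, 55.6 to 87.1) beside a background of 51.4%, which lies below this interval, although the interval again takes neighbouring regions as independent. All 4 subunits were called in 3 (8.82%), beside 2.35%. At a stricter IDR below 0.001 the RelB calls fell to 8 and the RelA calls to 2.

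Most regions therefore fell into a few combinations. p50 and p52 without the others were called in 12 regions (35.3%, against 31.8% of all regions), and both together with RelB in 10 (29.4% against 17.1%). p50 alone was called in 4 (11.8% against 21.2%) and p52 alone in 4 (11.8% against 19.8%). The remainder were the 3 with all subunits and 1 with p50 and RelB (2.94% against 1.02%). No region was called for RelB alone, a class with 3.83% of all regions, which is too rare for its absence among 34 to be informative. The 14 RelB and 3 RelA calls of the family all lay in regions also called for p50, as did 76.8% of all RelB and 80.3% of all RelA regions.

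**Figure D1:**
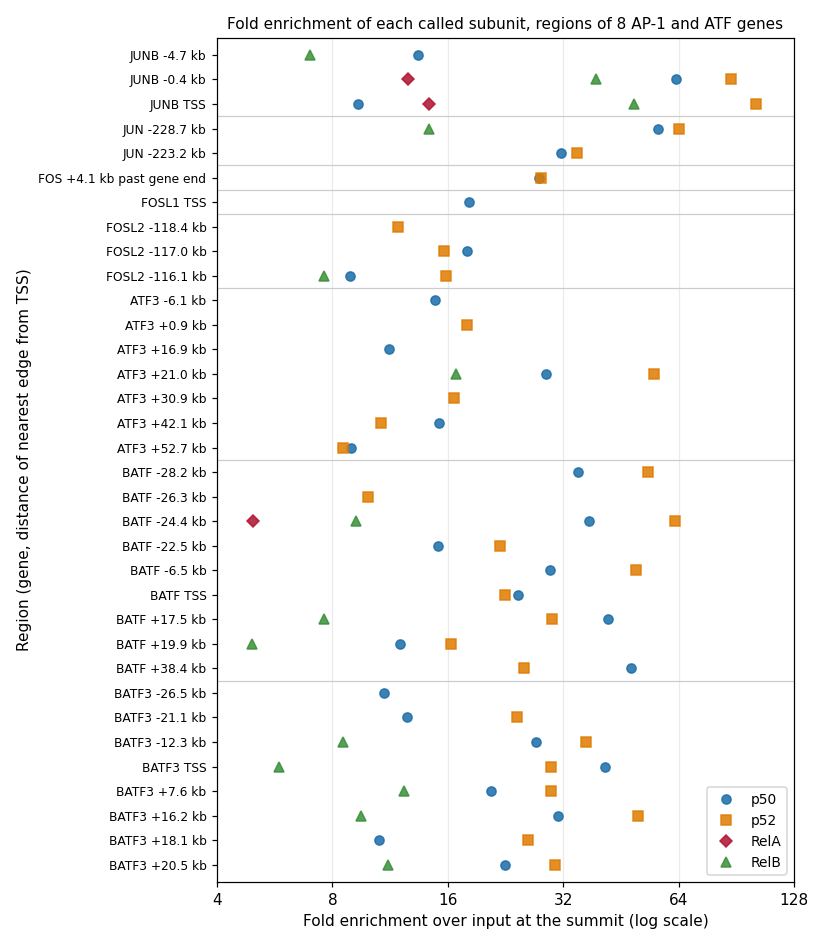
Fold enrichment over input at the summit (horizontal, log scale) of each called subunit in the 34 regions (rows, named by gene and by the distance in kb of the nearest edge from the TSS). The RelB values stand out at 2 JUNB regions, 39.1 and 48.9, whereas the other 12 lie between 4.94 and 16.8.

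The regions were unevenly spread over the genes. BATF had 9 regions over 68.7 kb, BATF3 8 over 50.4 kb and ATF3 7 over 61.1 kb, while JUNB had 3, FOSL2 3, JUN 2, FOS 1 and FOSL1 1. The median gene with any region had 1, and 1.67% of the 8450 such genes had 9 or more, 2.53% 8 or more and 3.74% 7 or more. The ATF3 and BATF3 regions lay in the same stretch of chromosome 1, from 210798194 to 210967464, so their counts do not come from distant loci. A region lay over the TSS of 4 genes, JUNB, FOSL1, BATF and BATF3, which is 11.8% of the 34 regions against 16.5% of all regions. The regions of the family were 464 to 3286 bp wide with a median of 1090 bp, compared with 863 bp over all regions, and 17 of them (50.0%) touched a gene, against 58.0% of all.

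**Figure D2:**
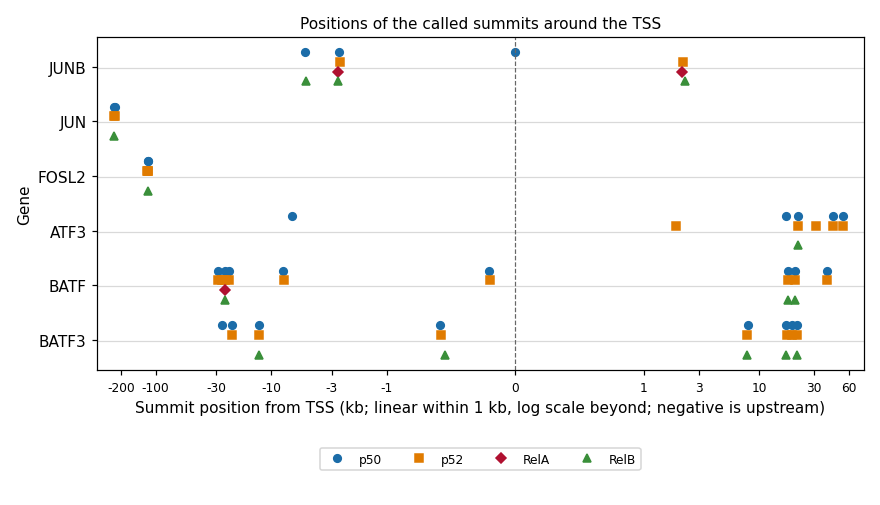
Position of each called summit from the TSS in kb (horizontal, linear within 1 kb and logarithmic beyond, negative upstream) at the 6 genes whose TSS could be derived from the deposited distances. Of the 32 regions at these genes, 24 have a summit of both p50 and p52, and 22 of those pairs are within 250 bp, and the regions assigned to JUN and FOSL2 lie more than 100 kb upstream.

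Among the JUN proteins, JUNB showed the highest enrichment of the family. JUNB is a JUN protein that dimerises with FOS and BATF proteins. On hg18 its 3 regions lay within 8.80 kb on chromosome 19 around the TSS at position 12763310. The first, chr19:12757417-12758641, ended 4669 bp upstream of the TSS and had a fold enrichment of 13.4 for p50 and 7.01 for RelB, with no call for p52 or RelA. It held 100 reads of p50 and 92 of p52, and the log2 ratio of 0.22 (−0.20 to 0.65) did not separate the subunits beyond counting error. The 75.1 p52 reads per kb were below the median of all regions, 91.4.

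The second JUNB region, chr19:12760184-12762882, ended 428 bp upstream of the TSS and was called for all 4 subunits. Its fold enrichment was 62.9 for p50, 87.8 for p52, 12.6 for RelA and 39.1 for RelB. These values stood at percentiles 99.4, 99.7, 96.7 and 99.3 among all regions called for the respective subunit. Both signal values were high for p50 (percentiles 99.9 and 99.3), p52 (95.8 and 99.8) and RelB (91.4 and 99.7), while those of RelA stood at 96.5 and 75.3. The 4 summits lay 2575, 2559, 2621 and 2628 bp upstream of the TSS in the same order, that is within 69 bp of each other. The region held 713 reads of p50, 834 of p52, 111 of RelA and 262 of RelB.

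The third JUNB region, chr19:12762930-12766215, began 47 bp after the second and covered the TSS. It was the widest region of the family, and the JUNB primer pair lies in it. The fold enrichment was 102.0 for p52, 48.9 for RelB and 14.3 for RelA, at percentiles 99.96, 99.8 and 97.4. In the separate replicates the p52 signal stood at percentiles 99.6 and 99.9, that of RelB at 99.9 and 99.8 and that of RelA at 80.1 and 96.5. Their summits lay 2214, 2270 and 2156 bp downstream of the TSS. The p50 value was only 9.35, at percentile 6.48, and the 2 p50 signal values stood at percentiles 16.8 and 43.3. The p50 summit lay 1 bp from the TSS, with a pileup of 57.0 against 281 for p52. The read numbers were nevertheless close, 875 for p50 and 891 for p52, and the log2 ratio of p50 to p52 reads relative to the median of all regions was 0.08 (95% counting interval −0.06 to 0.21). The p50 reads amounted to 15.4 per unit of pileup, where the median p50 region had 1.60, and only 0.222% of the 7643 regions with both subunits (17 regions) had p50 and p52 summits more than 2000 bp apart. In the running numbers of the p50 peaks, 5169 stands at this region and the next listed number is 5171. The table lists 1 peak per subunit and region, described in the paper's supplement as the most significant one, and 135 p50 numbers are missing in it. What the unlisted p50 peak was and where it lay was not tested, so the low p50 value describes the listed summit and not the p50 signal over the whole region.

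**Figure D3:**
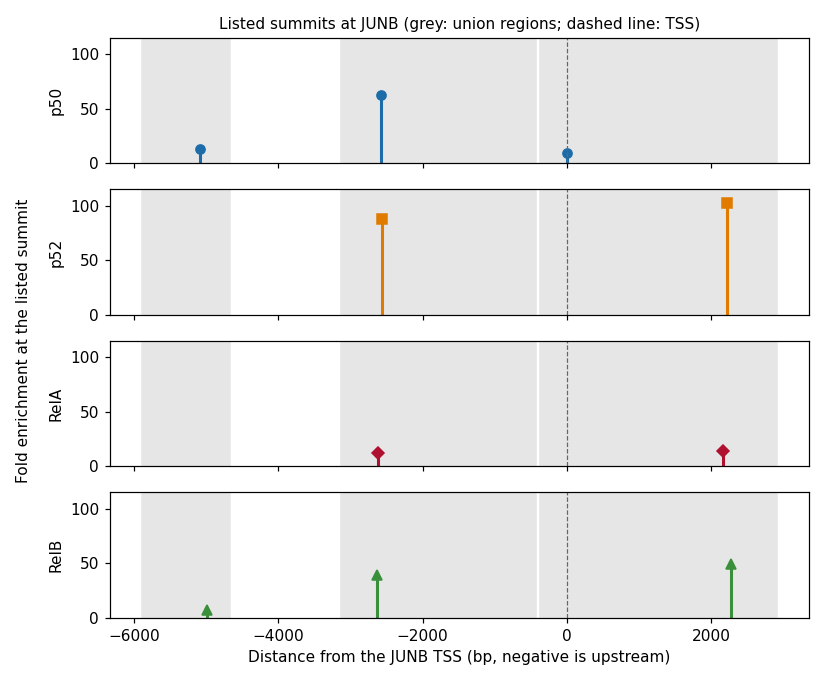
Fold enrichment of the listed summit of each subunit (vertical, 1 panel per subunit, from 0) against the distance from the JUNB TSS in bp. Grey bands are the 3 regions, and the listed p50 summit of the region over the TSS lies 1 bp from the TSS while those of the other subunits lie 2156 to 2270 bp downstream.

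JUN, the founding JUN protein, had no region near its TSS. Its 2 regions on chromosome 1 lay 223 and 229 kb upstream of the TSS at position 59022587, and no region at all was listed within 100 kb of that TSS. The farther one, chr1:59251275-59252216, was among the strongest of the family, with a fold enrichment of 56.7 for p50 (percentile 98.9) and 64.3 for p52 (98.2) and of 14.3 for RelB (77.7). Its reads numbered 288 for p50, 358 for p52, 20 for RelA and 59 for RelB. The p50 and p52 signals were at percentile 97.2 or above in both replicates, whereas the 2 RelB signal values stood at percentiles 42.4 and 83.1. The nearer region, chr1:59245829-59246830, had 31.5 for p50 and 34.7 for p52 without RelB. Whether these regions act on JUN was not measured, since the assignment rests on distance.

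Of the FOS genes, none had a fold enrichment above 28.0. FOS is the prototypical partner of JUN. Its single region, chr14:74822784-74823273, began 4099 bp past the end of the gene, and its closest TSS was that of another gene. It showed 27.6 for p50 and 28.0 for p52, with 92 and 101 reads, so that the 2 subunits could not be told apart by their reads (log2 ratio −0.03, −0.46 to 0.39). RelA and RelB had 6 and 10 reads there and were not called.

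FOSL1, also known as FRA1, had 1 region over its TSS, chr11:65424213-65424992, which was called for p50 alone. The fold enrichment of 18.2 was at percentile 55.7. The region held 75 reads of p50, 23 of p52, 9 of RelA and 11 of RelB. With a log2 ratio of 1.76 (1.12 to 2.55), it was the region of the family most shifted towards p50.

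FOSL2, also known as FRA2, was reached only through its TSS. The 3 regions lay 116 to 118 kb upstream of it within 3.06 kb, inside another gene, BRE, and no region was listed within 100 kb of the FOSL2 TSS. The outermost, chr2:28350025-28350748, was called for p52 alone with 11.8, and held 94 p52 and 45 p50 reads. The middle one, chr2:28351160-28352138, had 18.0 for p50 and 15.6 for p52. The innermost, chr2:28352401-28353079, had 8.91 for p50, 15.8 for p52 and 7.61 for RelB. All FOSL2 fold enrichments for p52 were below the median of all p52 regions, which was 17.2. By pileup, the middle and innermost regions, at 90 and 77, were above the p52 median of 54, and the outermost, at 53, was below. The p52 signal values stood at percentiles 58.8 and 73.5 in the middle region and at 55.6 and 63.9 in the innermost. In the outermost they stood at 25.5 and 44.3.

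ATF3, a stress-induced ATF protein that binds alone or with JUN proteins, had 7 regions on chromosome 1 between 6.10 kb upstream and 52.7 kb downstream of the TSS at position 210805320. All ATF3 positions count from this start, which the deposited distances gave. The other RefSeq start of ATF3 was not placed on hg18, so binding near it was not assessed. The region closest to the TSS used, chr1:210806244-210807501, began 924 bp downstream and was called for p52 alone, with a fold enrichment of 18.0 and 181 reads. p50 had 86 reads there and was not called. The next call upstream was of the opposite kind, p50 alone with 14.8 at chr1:210798194-210799217, where p50 had 123 and p52 56 reads.

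The strongest ATF3 region was chr1:210826312-210827640, 21.0 kb downstream of the TSS and inside the gene as annotated, in which the ATF3 primers lie. p52 reached a fold enrichment of 55.2 (percentile 96.3), p50 of 28.8 (81.3) and RelB of 16.8 (84.9). The p52 signal stood at percentiles 99.4 and 98.4 in the separate replicates and that of p50 at 89.9 and 89.2. It held 528 p52, 207 p50, 105 RelB and 30 RelA reads. The log2 ratio of −1.24 (−1.49 to −1.01) placed it among the 4 regions of the family shifted to p52 by 2-fold or more. It was also the only ATF3 region called for RelB, and both RelB signal values were high, at percentiles 87.5 and 90.6.

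The other ATF3 regions were weaker and differed in their calls. p50 alone was called 16.9 kb downstream (11.2) and p52 alone 30.9 kb downstream (16.6). At the former, the reads did not separate the subunits beyond counting error (log2 ratio 0.48, −0.04 to 1.02). The 2 outermost regions, 42.1 and 52.7 kb downstream, carried both subunits at 15.2 and 8.92 for p50 and at 10.7 and 8.51 for p52. By the deposited distances, the last 3 regions lay inside ATF3 but closer to the TSS of another gene. Of the 7 regions, 4 had log2 ratios of p50 to p52 reads above 0 and 3 below, from −1.32 to 1.22, and 2 in each direction reached 2-fold.

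BATF pairs with JUN proteins and is known from lymphocytes, where such dimers act together with IRF factors. Its 9 regions on chromosome 14 extended from 28.2 kb upstream to 38.4 kb downstream of the TSS at position 75058537, and all were called for p52 and 8 for p50. Over the TSS, in chr14:75055803-75058947, the fold enrichment was 24.4 for p50 and 22.6 for p52. The summits lay 201 and 197 bp upstream of the TSS, and there was no call for RelA or RelB at 60 and 79 reads. The p50 signal values of this region stood at percentiles 80.2 and 44.1 and those of p52 at 58.8 and 46.6, while the fold enrichments stood at 73.3 and 66.1.

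A group of 4 regions lay between 22.5 and 28.2 kb upstream of BATF, with gaps of 647 to 1158 bp. The outer 2 were assigned to BATF by its TSS alone, as another gene (ENSG00000140044) was closer. The one at chr14:75032861-75034098 was called for all 4 subunits and had the highest p52 value of the gene. p52 reached a fold enrichment of 62.8 (percentile 98.1) with 438 reads, p50 of 37.4 (91.0) with 244, RelB of 9.20 (51.1) with 51 and RelA of 4.96 (29.3) with 34. The 4 summits lay within 31 bp of each other. The RelA call was the weakest of the 3 in the family, with an IDR of 0.00399. Both of its signal values were low, at percentiles 9.96 and 25.6. This RelA call was lost at a fold enrichment of at least 5, and with it the call for all 4 subunits. The neighbour at chr14:75028690-75030330 had 53.2 for p52 and 35.0 for p50, and the other 2 of the group had p52 values of 9.90 and 22.0. The region 6.45 kb upstream had 29.6 for p50 and 49.6 for p52. All 5 upstream BATF regions beyond the TSS had log2 ratios below 0, from −1.66 to −0.17. The −0.17 belonged to the region 22.5 kb upstream, and its interval held 0 (−0.58 to 0.23).

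Downstream of the BATF TSS, 2 of the 3 regions had log2 ratios above 0. The region 38.4 kb downstream, chr14:75096973-75097436, had the highest p50 value of the gene, 48.2 (percentile 96.8), against 25.2 for p52, with 143 and 66 reads and a log2 ratio of 1.21 (0.79 to 1.66). Its closest TSS was that of the next gene, FLVCR2. The regions 17.5 and 19.9 kb downstream, inside BATF, carried RelB calls of 7.59 and 4.94 beside p50 (41.9 and 12.0) and p52 (30.0 and 16.3), with log2 ratios of 0.35 (0.05 to 0.66) and 0.00 (−0.40 to 0.39).

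BATF3, a close relative of BATF that likewise pairs with JUN proteins, had 8 regions on chromosome 1, with p50 called in all of them, p52 in 7, RelB in 5 and RelA in none. The region over the TSS, chr1:210938613-210941721, showed 41.2 for p50 (percentile 93.6), 29.7 for p52 (79.2) and 5.80 for RelB (18.7). The summits lay 586, 582 and 546 bp upstream of the TSS at position 210939950. Its reads numbered 755 for p50, 484 for p52, 70 for RelA and 152 for RelB, and the log2 ratio of 0.74 (0.58 to 0.91) lay towards p50. The p50 signal was at percentiles 95.5 and 96.7 in the separate replicates and that of p52 at 74.5 and 83.0. With BATF at −0.40 (−0.63 to −0.18), the read ratios over the 2 starts lay on opposite sides of 0, in merged libraries without a replicate check. The fold enrichments at the summit did not show this, since p50 was above p52 at both starts (24.4 and 22.6 at BATF, 41.2 and 29.7 at BATF3).

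The BATF3 region with the highest p52 value, chr1:210921840-210923771, lay 16.2 kb downstream of the TSS. p52 reached a fold enrichment of 50.2 (percentile 94.7) with 819 reads, p50 of 31.1 (84.3) with 568 and RelB of 9.47 (53.0) with 209, beside 64 reads of RelA. The listed summits of p50 and p52 were 475 bp apart, which makes it, beside the JUNB region over the TSS, 1 of the 2 regions of the family beyond 250 bp. RelB followed p50, with its summit 16 bp away.

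The highest RelB value of BATF3 was found 7.63 kb downstream, inside the gene, at chr1:210931274-210932318. It was 12.3 (percentile 69.8) beside 29.7 for p52 and 20.7 for p50, with 102 RelB, 416 p52, 239 p50 and 58 RelA reads. RelA was not called, although its 55.5 reads per kb were at percentile 98.0 of all regions and above the 41.1 and 47.2 of the called JUNB regions. RelB reads per kb were at percentile 97.5 in the same region, so that read density and call did not rank the regions alike.

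The other 5 BATF3 regions had p50 values of 10.6 to 27.2 and, in the 4 called for it, p52 values of 24.3 to 36.7. RelB was called in 2 of them, with 8.51 at 12.3 kb upstream and 11.2 at 20.5 kb downstream. The one without a p52 call, 26.5 kb upstream, had 98 p50 and 37 p52 reads and a log2 ratio of 1.48 (0.95 to 2.09). It touched another gene (ENSG00000117697), which was also the closest gene of the region 21.1 kb upstream, and both were assigned to BATF3 by its TSS alone. In the other direction, the region 18.1 kb downstream had 86 p50 and 217 p52 reads and a log2 ratio of −1.22 (−1.61 to −0.87).

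Across the family, the read balance between p50 and p52 varied from region to region. The median log2 ratio of reads was −0.23 relative to the median of all regions, with a range from −1.66 to 1.76. It was below 0 in 22 regions (64.7%, against 49.97% of all) and above 0 in 12. Its 95% counting interval lay below 0 in 17 (50.0% against 33.4%), above 0 in 8 (23.5% against 35.6%) and held 0 in 9 (26.5% against 31.0%). The family's regions held more reads, with medians of 159.5 for p50 and 182 for p52 against 78 and 77 over all regions, which narrows these intervals, and the difference was not tested. A shift of 2-fold or more towards p50 was seen in 5 regions (14.7%; background 19.4%) and towards p52 in 4 (11.8%; background 14.2%), both near the background. At a limit of 1.5-fold the counts were 6 (17.6%) towards p50 and 11 (32.4%) towards p52, where 31.6% and 28.2% of all regions reached it. The 5 regions towards p50 were those over the FOSL1 TSS, 2 of ATF3, 1 of BATF and 1 of BATF3. The 4 towards p52 were 2 of ATF3, 1 of BATF and 1 of BATF3, whereas none of the JUNB, JUN, FOS and FOSL2 regions reached 2-fold.

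**Figure D4:**
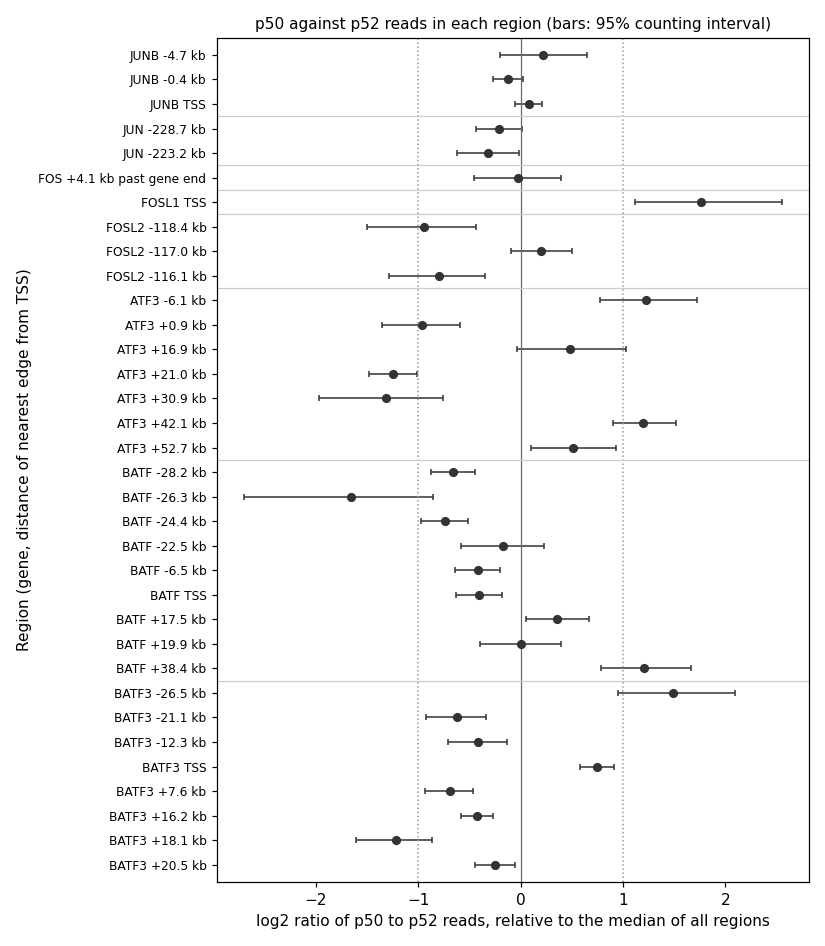
log2 ratio of p50 to p52 reads in each of the 34 regions relative to the median of all regions (horizontal), with bars for the 95% counting interval and dotted lines at 2-fold. Values run from −1.66 to 1.76, and ATF3, BATF and BATF3 each have regions on both sides.

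Where both subunits were called, the fold enrichment of p52 was higher than that of p50 in 18 of 25 regions, and p50 was higher in 7, compared with 43.2% of all regions with both calls. The 18 include the JUNB region over the TSS, where the low p50 value describes the listed summit only. The median log2 ratio of the fold enrichments was −0.44, against −0.12 over all regions. p50 exceeded RelB in 13 of 14 regions, the exception being the JUNB region over the TSS with its low listed p50 value, and p52 exceeded RelB in 13 of 13. Over all regions with the respective calls these shares were 91.1% and 95.1%. RelA was below RelB in 3 of 3, and above it in 6.41% of all regions with both. p50 exceeded RelA in 2 of 3 regions, the exception again being the JUNB region over the TSS, against 97.0% of all regions with both. As the subunits were precipitated with different antibodies, these orders compare enrichments and not amounts of bound protein.

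Strength was read against all regions of the same subunit, since antibodies differ. The median fold enrichment of the family was 21.7 for p50 and 28.0 for p52, beside 16.8 and 17.2 over all regions called for each. It was 12.6 for RelA and 9.33 for RelB, beside 6.23 and 9.08. As percentiles among all called regions, the medians of the family were 66.6 (p50), 76.8 (p52), 96.7 (RelA, 3 regions only) and 52.02 (RelB). The family was not uniform, since 3 of its p50, 2 of its p52 and 1 of its RelB values were among the lowest 10% of the subunit. One of these p50 values is that of the JUNB region over the TSS, which describes its listed summit only. Among the highest 10% were 6 of its p50, 8 of its p52, 2 of its RelA and 2 of its RelB values, and all of those of RelA and RelB were at JUNB. For RelA this count rests on fold enrichment, since by pileup none was among the highest 10% and by each signal value 1 was.

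The 2 signal values per subunit, 1 from each replicate, allowed a look at the agreement between libraries. Both lay above the median of all called regions in 16 of 30 p50, 23 of 29 p52, 2 of 3 RelA and 5 of 14 RelB regions, and they fell on different sides of it in 3, 2, 0 and 5. The median gap between the 2 percentiles was 9.81 points (p50), 5.74 (p52), 16.5 (RelA) and 17.1 (RelB). Over all called regions it was 13.1, 11.03, 25.9 and 19.8 in the same order. The p52 gap was the smallest in the family although the replicates used different antibodies. All these regions had been called by the IDR between the same replicates, so that some agreement was a condition of being listed. Outside the 2 JUNB regions called for all subunits, the order of RelB values is less secure. The 2 signal values fell on different sides of the median in 5 of the 14 RelB regions. At the ATF3 region 21.0 kb downstream they were close, at percentiles 87.5 and 90.6.

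**Figure D5:**
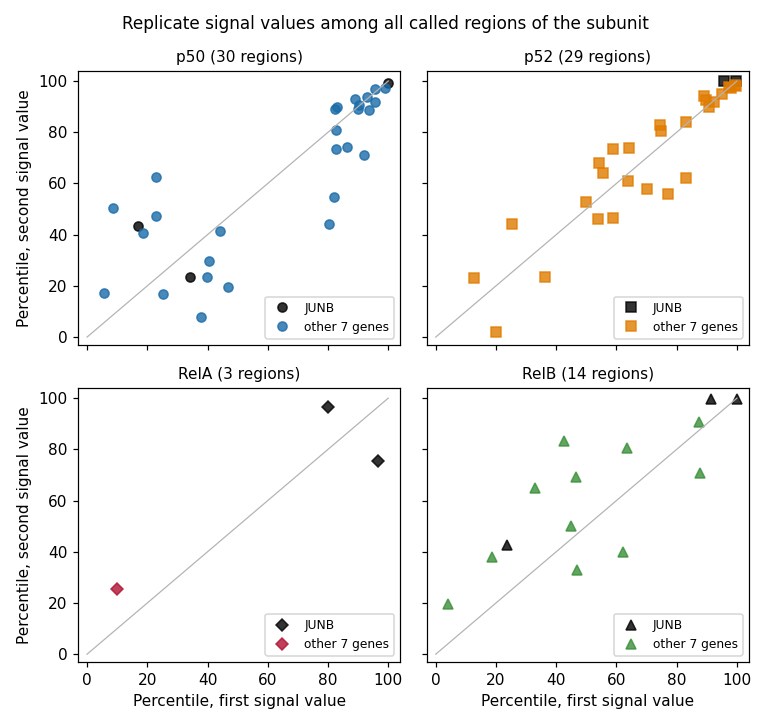
Percentile of the first against the second signal value among all called regions of the subunit, 1 panel per subunit, with JUNB in black and a line where both are equal. The p52 points follow the line closely, with a median gap of 5.74 points, and the RelB points scatter more, with 17.1.

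Summits of p50 and p52 were a median of 14.0 bp apart in the 25 regions with both, compared with 11 bp over all such regions, and 23 of the 25 pairs were within 250 bp, against 95.3% of all pairs. RelB summits were a median of 29.0 bp from p50 and 43.0 bp from p52, farther than the 17.5 and 19.0 bp over all regions, a difference that was not tested.

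For comparison, regions were counted at other genes of the bZIP superfamily, to which AP-1 and ATF proteins belong. Of 33 genes listed, 9 could be matched to an identifier, and 6 of these had regions, 16 in all, with 11 calls for p50, 14 for p52, 1 for RelA and 3 for RelB. The 9 were all ATF, BACH or BATF genes. Any regions of the unmatched genes, among them JUND, FOSB, JDP2 and the MAF, CREB and CEBP genes, were not counted. Over all regions, p50 was called in 73.8%, p52 in 73.3%, RelA in 3.31% and RelB in 26.8%. The 16 regions were not tested against these shares. ATF7 had 6 regions, and ATF1, ATF5, ATF6, BACH1 and BACH2 had 2 each, while ATF2, ATF4 and BATF2 had none. A region lay over the TSS of ATF7 (p50 alone, 8.23), ATF1 (p50 alone, 10.7) and ATF6 (p52 alone, 18.7). At ATF5 both regions were strong. The one 4.04 kb upstream of the TSS, which like the other touched another gene, reached 44.3 (p50), 58.2 (p52) and 30.1 (RelB). The one 16.9 kb upstream was called for all subunits, at 25.2 (p50), 39.2 (p52), 6.56 (RelA) and 11.9 (RelB). That RelB value of 30.1 was below those of the 2 JUNB regions called for all subunits (39.1 and 48.9) and above every other RelB value of the 8 genes.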

How the data were processed

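ChIP-seq of 4 NF-κB subunits in L1236 cells was compared with input. Per the submitters' processing notes, CASAVA, Bowtie and SAMtools were used and reads were placed on hg18; versions are not given in the sources used here. The authors reduced libraries to 10000000 reads, called peaks with MACS, compared the 2 replicates by the irreproducible discovery rate (IDR) and joined overlapping peaks of merged replicates. The deposited read counts are raw counts per region, and whether they precede that reduction is not stated. The deposited fold enrichment is a ratio over input at the summit, and pileup, also deposited, is a coverage signal. The deposited IDR is a fraction, the deposited false discovery rate (FDR) a q-value, both with a threshold of 0.05, and the deposited signal values are a score per replicate of unnamed scale that carries no replicate name. Genes and TSSs within 1 Mb are the authors', from Ensembl 54.

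The members and gene lists were chosen with earlier results of these data known. TSS positions were derived from the deposited distances. Percentiles are ranks among all called regions of a subunit, or, for reads per kb, among all regions. Read ratios had 1 read added and were centred on the median of all regions, with an exact Clopper-Pearson interval of the read share, and 2-fold was called a shift. All 8 genes are named. For those with over 5 regions, the region closest to the TSS, those called for all subunits and the one with the highest fold enrichment of each subunit are given in full and the rest by counts, ranges or single values. Of other bZIP genes, the 5 with the most regions (ties included) and any with a region over its TSS are named. The TSS derivation and the interval were tested on simulated data. Reads over all regions totalled 1654137 for p50, 1810792 for p52, 315151 for RelA and 470788 for RelB, of which 7649, 9272, 1230 and 2186 fell in member regions. Alternatives were other assignment rules, stricter thresholds, pileup or a single replicate's signal, other added reads and a 1.5-fold limit. Calculations ran in Python 3.11.15 with scipy 1.17.1, pandas 2.3.3 and numpy 2.4.6, and plots were drawn with matplotlib 3.10.9. Sequence of the regions on hg18 was not used here.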

Additional observations from a re-analysis of the deposited data

How the results depend on the processing

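Of 42 alternatives, 30 left a count within 1.5 times or a median within its spread, and 12 moved it. The median percentile of the family's fold enrichment (66.6 for p50, 76.8 for p52, 96.7 for RelA, 52.02 for RelB) became 79.2, 81.5, 76.1 and 67.0 with pileup in its place. With the signal of a single replicate it ranged from 66.8 to 82.2 (p50), 73.8 to 74.7 (p52), 75.3 to 80.1 (RelA) and 46.8 to 67.0 (RelB). RelB calls fell from 14 to 8 and RelA calls from 3 to 2 at an IDR below 0.001. This limit was chosen after seeing the data because all deposited IDR values were already below 0.01. The median IDR over all RelB regions was 0.00099, close to that limit, so many RelB calls outside the family would be lost as well. RelA calls also fell to 2 at an FDR below 1e-05 or at a fold enrichment of at least 5. At a 1.5-fold limit, regions shifted to p52 rose from 4 to 11 and those shifted to p50 from 5 to 6. The cause was not tested. Sharing judged by summits within 250 bp left 2 of the 3 regions called for all 4 subunits and 23 of the 25 with p50 and p52. No paired analysis was possible because the replicates were merged and the signal values carry no replicate number. Counting error was widest for RelA, with a median of 27.5 reads per region of the family against 159.5 for p50, 182 for p52 and 35.0 for RelB, numbers that follow enrichment as well as sequencing depth. The median p50 to p52 interval reached 0.31 on the log2 scale to either side.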
